A study of Chlamydomonas reinhardtii with 31 samples.

Results

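The 10 genes described here encode enzymes of glycolysis and of the pentose phosphate pathway in the unicellular green alga Chlamydomonas reinhardtii. They were chosen by locus identifier, and all 10 were found among the 17301 genes of the deposited expression table. Glycolysis is represented by 7 of them. Its upper steps are covered by PFK1 (Cre06.g262900) and PFK2 (Cre12.g553250), phosphofructokinases that commit hexose phosphate to breakdown, and by PGI1 (Cre03.g175400), the phosphoglucose isomerase that interconverts glucose and fructose phosphates. The lower steps are covered by GAP1 (Cre12.g485150), a glyceraldehyde-3-phosphate dehydrogenase, PGM2 (Cre06.g272050), a phosphoglycerate mutase, PGH1 (Cre12.g513200), the enolase, and PYK1 (Cre12.g533550), a pyruvate kinase. The pentose phosphate pathway is represented by 3 genes. GLD2 (Cre08.g378150) encodes glucose-6-phosphate dehydrogenase and GND1 (Cre12.g526800) encodes 6-phosphogluconate dehydrogenase, which together form the oxidative, NADPH-yielding branch. TAL1 (Cre01.g032650) encodes transaldolase, which exchanges carbon units between sugar phosphates in the non-oxidative branch.

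Glycolysis splits hexose phosphate into pyruvate and supplies carbon for acetyl-CoA, the precursor of fatty acids. The oxidative pentose phosphate branch reduces NADP and so provides reductant for fatty acid synthesis, and the non-oxidative branch returns pentose phosphates to glycolytic intermediates. In this alga the upper part of glycolysis runs largely in the chloroplast, where starch is made and broken down, and nitrogen starvation is known to redirect carbon into starch and triacylglycerol.

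Cultures were grown in TAP, an acetate medium with ammonium, washed and moved to the same medium without ammonium chloride, so that every group, 0 h included, carries the label of nitrogen removal. The mutant was sta6 (CC-4348), a starchless strain that lacks STA6, the small subunit of ADP-glucose pyrophosphorylase, the enzyme that commits carbon to starch. STA6-C2 (CC-4565), STA6-C4 (CC-4566) and STA6-C6 (CC-4567) are rescued strains in which STA6 was put back into sta6, each of them a single line. CC-4349 carries STA6 and served as the strain of comparison. A first library set covered sta6 and CC-4349 at 0, 0.5, 2, 4, 8, 12, 24 and 48 h, with 1 sample per strain and time and 16 samples in all. A second set of 15 samples covered sta6, the 3 rescued strains and CC-4349 at 0.5, 4 and 48 h. Values were taken as FPKM, although no header states the unit. FPKM are read fragments scaled by gene length and library total, which allow levels of different genes to be compared per length.

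The labels were checked on STA6 itself (Cre03.g188250), which was at most 2.55 FPKM in the 11 sta6 libraries and at least 98.2 FPKM in the 20 libraries of the other strains. Depth per library is unknown. Each first-set sample had a pair of deposited columns, which were averaged. Between paired columns the 10 genes differed by a median of 0.12 on the log2 scale and by at most 1.04, for TAL1 in sta6 at 8 h. The first-set CC-4349 columns were not on the same scale per gene as the others. Among the 600 lowest genes shared by a pair of columns, the ratio of the columns sat at a single value, within 0.005 on the log2 scale, for a median of 14.1% of genes when sta6 of the first set was paired with the sta6 lineage of the second. Pairing CC-4349 of the first set with CC-4349 of the second gave 2.33%, and pairing it with sta6 of its own set gave 3%. Levels of the strains were therefore compared in the second set, and first-set CC-4349 was compared over time with itself. One further library stood apart. The first-set sta6 sample at 0.5 h was close to its own 0 h sample, with 18.2% of genes more than 1 log2 unit apart, against 43.2% in CC-4349. At 0.5 h the sta6 samples of the sets correlated at 0.908 across genes, against 0.977 at 4 h and 0.957 at 48 h.

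All 10 genes were well expressed, each at or above the 71.4th percentile of genes in every library. By median over the 23 samples other than first-set CC-4349, whose scale per gene differed, GLD2 was lowest at 73.0 FPKM, followed by PFK1 at 94.2, PFK2 at 113, PYK1 at 114, PGM2 at 185 and PGI1 at 205 FPKM. TAL1 at 337, GND1 at 438.5 and PGH1 at 568.5 FPKM came next, and GAP1 was highest at 1435 FPKM. The ranges of neighbours in this order overlapped throughout. The span between the lowest and highest of these samples was widest for TAL1, at 19.3-fold, followed by GND1 at 10.4-fold, GLD2 at 9.83-fold and GAP1 at 7.09-fold, with at most 5.55-fold for the other 6 genes.

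The first comparison asked how these genes changed after nitrogen was removed. Log2 changes are on the log2(FPKM + 1) scale with their standard errors after ±, and a gene is called higher or lower at a limma adjusted p under 0.05. At 2 h, 6 of the 10 genes were higher than at 0 h, namely both phosphofructokinases, PGI1, PGM2 and the oxidative pentose phosphate genes GLD2 and GND1. At 12 h, 7 genes were higher, with GAP1 and PYK1 joining PFK1, PFK2, PGM2, GLD2 and GND1. At 48 h, 6 genes were higher, namely PFK1, GAP1, PGM2, PYK1, GLD2 and GND1, and no gene was lower at any of these 3 times, nor at an unadjusted p under 0.05 (0 genes). The oxidative branch moved most, at 6.46-fold for GLD2 and 5.39-fold for GND1 at 2 h. Limma tested 15108 genes and placed 39.8% of them higher and 14.7% lower at 2 h, 38.5% and 10.6% at 12 h, and 37.9% and 11.8% at 48 h. The median log2 change of the 10 genes was 1.33 at 2 h, 1.49 at 12 h and 1.03 at 48 h, beside 0.53, 0.53 and 0.52 over all genes. That shift of all genes stood at 0.12, 0.07 and 0.07 after quantile normalization, where 6, 8 and 8 members were higher, and near 0 with equal medians, where 5, 5 and 3 members were higher. A moderated F test over the 7 times called 9 of 10 members, TAL1 being the exception (limma adjusted p = 0.173), and 52.1% of all genes. Each strain had 1 library per time, so that the strains served as replicates of a time. In a bulk culture, fewer cells with a transcript and less transcript per cell cannot be told apart.

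In upper glycolysis, PFK1 in sta6 stood at 40.6 FPKM at 0 h, 27.2 at 0.5 h, 138 at 2 h, 137 at 4 h, 118 at 8 h, 113 at 12 h, 87.5 at 24 h and 76.3 at 48 h. In CC-4349, PFK1 stood at 32.3 FPKM at 0 h, 41.2 at 0.5 h, 102 at 2 h, 88.5 at 4 h, 92.7 at 8 h, 94.1 at 12 h, 71.5 at 24 h and 66.3 at 48 h. Both strains were low at 0 and 0.5 h and high from 2 h onward, with every later sample above the 0 and 0.5 h samples of its strain. The fitted log2 change of this phosphofructokinase was 1.68 ± 0.26 (limma adjusted p = 0.000876) at 2 h, and 0.96 ± 0.26 (limma adjusted p = 0.0130) at 48 h, where it missed the threshold with equal medians (0.43, limma adjusted p = 0.211). PFK2 ran alongside PFK1 from a higher start (Pearson r = 0.899 over the 16 first-set samples). In sta6, PFK2 stood at 87.0 FPKM at 0 h, 67.0 at 0.5 h, 196 at 2 h, 186 at 4 h, 147 at 8 h, 138 at 12 h, 114 at 24 h and 122 at 48 h. In CC-4349, PFK2 stood at 68.8 FPKM at 0 h, 47.2 at 0.5 h, 179 at 2 h, 133 at 4 h, 124 at 8 h, 132 at 12 h, 86.3 at 24 h and 89.6 at 48 h. Both series peaked at 2 h, and the log2 change against 0 h was 1.27 ± 0.19 (limma adjusted p = 0.000755) at 2 h and 0.79 ± 0.19 (limma adjusted p = 0.00702) at 12 h, where equal medians gave 0.25 (limma adjusted p = 0.316). At 48 h PFK2 was not called (0.43 ± 0.19, limma adjusted p = 0.0850).

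PGI1, the isomerase ahead of the phosphofructokinase step, had an early and brief peak. In sta6, PGI1 stood at 162 FPKM at 0 h, 239 at 0.5 h, 470.5 at 2 h, 267 at 4 h, 189 at 8 h, 202 at 12 h, 196 at 24 h and 167 at 48 h. In CC-4349, PGI1 stood at 202 FPKM at 0 h, 553 at 0.5 h, 490.0 at 2 h, 175 at 4 h, 130.4 at 8 h, 148 at 12 h, 168 at 24 h and 188 at 48 h. The peak was at 2 h in sta6 and at 0.5 h in CC-4349, and from 8 h the samples ranged over 167 to 202 FPKM in sta6 and over 130.4 to 188 FPKM in CC-4349. The peak time in sta6 rests on the first-set 0.5 h library that stood apart. Second-set sta6 stood at 511 FPKM at 0.5 h, so a difference in peak time between the strains is not established. Against 0 h the log2 change was 1.40 ± 0.38 (limma adjusted p = 0.0114) at 2 h (0.95 with equal medians, limma adjusted p = 0.0791) and -0.06 ± 0.38 (limma adjusted p = 0.902) at 12 h.

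In lower glycolysis, GAP1 dipped first and was high later. In sta6, GAP1 stood at 503 FPKM at 0 h, 269.9 at 0.5 h, 731 at 2 h, 1243 at 4 h, 1914 at 8 h, 1852 at 12 h, 1247 at 24 h and 1435 at 48 h. In CC-4349, GAP1 stood at 332 FPKM at 0 h, 88.2 at 0.5 h, 426 at 2 h, 1047 at 4 h, 1408 at 8 h, 1387 at 12 h, 1006 at 24 h and 983 at 48 h. The lowest value of both series was at 0.5 h and the highest at 8 h. This dehydrogenase was lower at 0.5 h than at 0 h (-1.40 ± 0.30, limma adjusted p = 0.0109), was not called at 2 h (0.45 ± 0.30, limma adjusted p = 0.228) and was higher at 12 h (1.97 ± 0.30, limma adjusted p = 0.000795). At 0.5 h it and TAL1 were the 2 members called lower and no member was called higher (1 at an unadjusted p under 0.05), while 6.12% of all genes were lower and 14.8% higher. After quantile normalization GAP1 was called lower at 0.5 h and TAL1 was not (-2.39 ± 0.83, limma adjusted p = 0.0766).

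PGM2, the mutase, ran close to PFK1 (r = 0.944 over the same samples). In sta6, PGM2 stood at 89.7 FPKM at 0 h, 93.3 at 0.5 h, 263 at 2 h, 306 at 4 h, 279.7 at 8 h, 252 at 12 h, 185 at 24 h and 178 at 48 h. In CC-4349, PGM2 stood at 75.9 FPKM at 0 h, 149.6 at 0.5 h, 258 at 2 h, 272 at 4 h, 239 at 8 h, 231 at 12 h, 189 at 24 h and 178 at 48 h. Both series were highest at 4 h, and at 48 h still lay above 0 h, with log2 changes of 1.65 ± 0.24 (limma adjusted p = 0.000624) at 2 h and 1.10 ± 0.24 (limma adjusted p = 0.00442) at 48 h. The value at 48 h was 0.58 with equal medians (limma adjusted p = 0.0718). PGH1, the enolase that follows the mutase, moved less. In sta6, PGH1 stood at 560.4 FPKM at 0 h, 533 at 0.5 h, 831 at 2 h, 1205 at 4 h, 921 at 8 h, 777 at 12 h, 542 at 24 h and 569 at 48 h. In CC-4349, PGH1 stood at 313 FPKM at 0 h, 368 at 0.5 h, 402 at 2 h, 543 at 4 h, 345 at 8 h, 333 at 12 h, 285 at 24 h and 272 at 48 h. Its highest value in both series was at 4 h, the only time at which it was called against 0 h (0.95 ± 0.23, limma adjusted p = 0.00786), when 8 members were higher and 0 lower, beside 37.0% and 11.8% of all genes. At 2, 12 and 48 h its log2 changes were 0.46 ± 0.23, 0.28 ± 0.23 and -0.09 ± 0.23, none of them past the threshold.

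PYK1, which makes pyruvate in the last step of glycolysis, peaked earlier in sta6 than in CC-4349. In sta6, PYK1 stood at 53.6 FPKM at 0 h, 40.8 at 0.5 h, 119.7 at 2 h, 186 at 4 h, 227 at 8 h, 199 at 12 h, 151 at 24 h and 141 at 48 h. In CC-4349, PYK1 stood at 59.2 FPKM at 0 h, 109 at 0.5 h, 102 at 2 h, 133 at 4 h, 129 at 8 h, 130.0 at 12 h, 165 at 24 h and 159 at 48 h. The mutant series was lowest at 0.5 h and highest at 8 h, whereas the CC-4349 series was already above its start at 0.5 h and highest at 24 h. The mutant value at 0.5 h is from the first-set library that stood apart. In the second set PYK1 at 0.5 h stood at 77.2 FPKM in sta6 and 80.2 FPKM in CC-4349, with no 0 h sample. Over both strains PYK1 was higher at 12 h (1.50 ± 0.43, limma adjusted p = 0.0156) and at 48 h (1.39 ± 0.43, limma adjusted p = 0.0214), but with equal medians neither passed (0.95, limma adjusted p = 0.113, and 0.87, limma adjusted p = 0.142).

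The oxidative pentose phosphate genes had the largest log2 changes of the 10 at 2, 12 and 48 h. In sta6, GLD2 stood at 11.7 FPKM at 0 h, 14.3 at 0.5 h, 109 at 2 h, 115 at 4 h, 107 at 8 h, 106 at 12 h, 85.4 at 24 h and 87.5 at 48 h. In CC-4349, GLD2 stood at 23.7 FPKM at 0 h, 42.3 at 0.5 h, 118 at 2 h, 99.5 at 4 h, 82.7 at 8 h, 85.4 at 12 h, 83.2 at 24 h and 81.9 at 48 h. Every sample from 2 h onward lay above the 0 and 0.5 h samples of both strains. The log2 change of GLD2, whose enzyme opens the pathway, was 2.69 ± 0.42 (limma adjusted p = 0.000883) at 2 h, 2.44 ± 0.42 (limma adjusted p = 0.00137) at 12 h and 2.27 ± 0.42 (limma adjusted p = 0.00199) at 48 h. Strain by strain, with no test, the 2 h change was 3.12 in sta6 and 2.27 in CC-4349. GND1, which acts downstream of GLD2 and yields the second NADPH, ran in parallel. In sta6, GND1 stood at 84.1 FPKM at 0 h, 56.7 at 0.5 h, 439 at 2 h, 586 at 4 h, 584 at 8 h, 584 at 12 h, 435 at 24 h and 443 at 48 h. In CC-4349, GND1 stood at 66.1 FPKM at 0 h, 98.9 at 0.5 h, 377 at 2 h, 427 at 4 h, 416 at 8 h, 408 at 12 h, 335 at 24 h and 320.5 at 48 h. Every sample from 2 h on lay above the 0 and 0.5 h samples of both strains, and the log2 changes were 2.43 ± 0.30 (limma adjusted p = 0.000325) at 2 h, 2.69 ± 0.30 (limma adjusted p = 0.000190) at 12 h and 2.32 ± 0.30 (limma adjusted p = 0.000361) at 48 h.

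TAL1, of the non-oxidative branch, was the gene that the test over all times did not call. In sta6, TAL1 stood at 477 FPKM at 0 h, 45.6 at 0.5 h, 115 at 2 h, 157 at 4 h, 206 at 8 h, 238 at 12 h, 555 at 24 h and 595 at 48 h. In CC-4349, TAL1 stood at 115 FPKM at 0 h, 31.2 at 0.5 h, 110.5 at 2 h, 49.3 at 4 h, 63.3 at 8 h, 91.8 at 12 h, 49.2 at 24 h and 42.9 at 48 h. At 0.5 h transaldolase was 6.06-fold lower than at 0 h on the fitted scale (-2.60 ± 0.76, limma adjusted p = 0.0347), with both strains in the same direction. In sta6 the samples at 24 and 48 h lay above the 0 h sample, while no CC-4349 sample after 0 h exceeded the 0 h sample. At 2, 12 and 48 h TAL1 was not called, with -0.54 ± 0.76 (limma adjusted p = 0.572) at 48 h, where the strains lay on opposite sides of their 0 h samples.

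**Figure D1:**
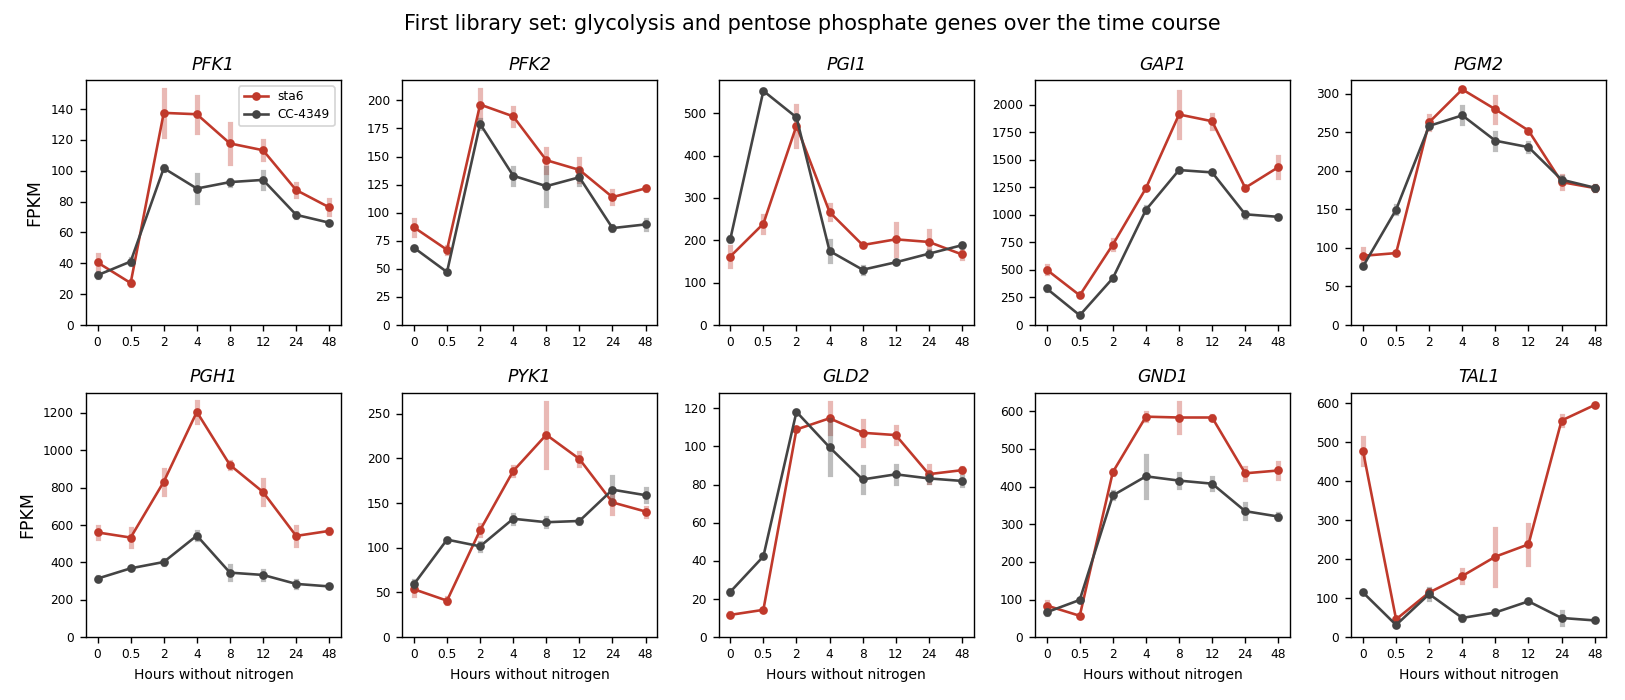
FPKM (vertical axis, from 0) of the 10 genes in the first library set against hours without nitrogen (evenly spaced ticks), for sta6 (red) and CC-4349 (grey). Points are means of the paired columns of a sample and thick bars join the pair. GLD2 and GND1 are seen to be high in every sample from 2 h. From 0 to 48 h TAL1 goes from 477 to 595 FPKM in sta6 and from 115 to 42.9 FPKM in CC-4349. The CC-4349 columns are on another scale per gene, so each strain is to be read against itself.

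**Figure D2:**
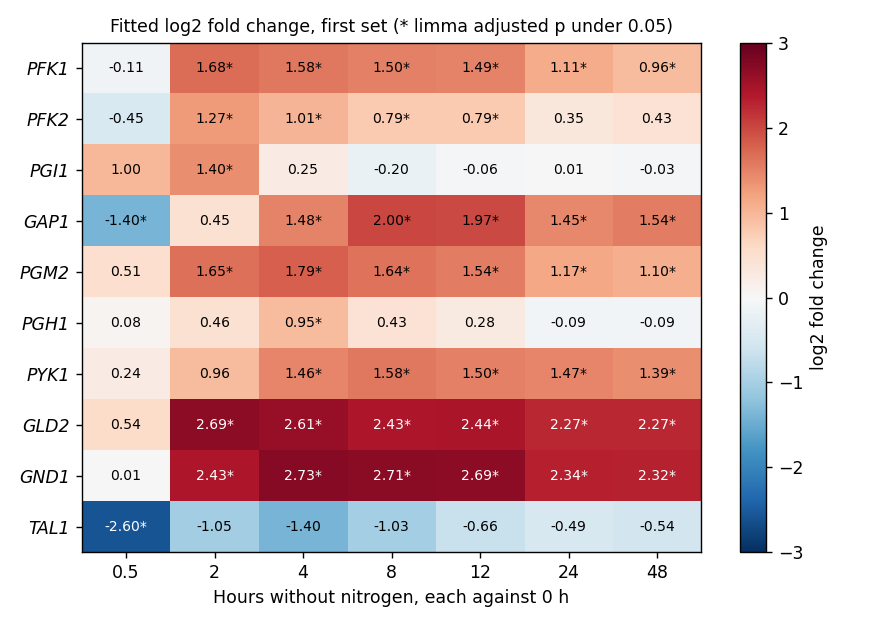
Fitted log2 fold change against 0 h (colour and number) for each of the 10 genes (rows) at 7 times (columns) in the first library set, with strain as a factor and an asterisk where the limma adjusted p is under 0.05. GLD2 and GND1 are above 2 from 2 h to 48 h, PGI1 is called at 2 h alone, and GAP1 and TAL1 are called lower at 0.5 h.

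The second library set asked the same question in 5 strains at 0.5, 4 and 48 h. From 0.5 to 4 h, 6 of the 10 genes were higher (PFK1, PFK2, GAP1, PGM2, PGH1 and GND1) and PGI1 was lower, beside 12.7% of 14982 genes higher and 9.73% lower. From 0.5 to 48 h, 4 were higher (GAP1, PYK1, GLD2 and GND1) and PGI1 was lower, beside 29.3% and 32.2% of all genes. From 4 to 48 h, PYK1 was higher and PFK1, PGI1 and PGH1 were lower, beside 23.8% and 28.0% of all genes. GAP1 and GND1 were higher than at 0.5 h at both later times, PGI1 was lower in all 3 comparisons, and PFK1 and PGH1 were higher at 4 h than before or after. The median log2 change of the 10 genes was 0.57, 0.32 and -0.31 in these comparisons, beside 0.03, -0.02 and -0.00 over all genes. The calls rest on 5 strains with 1 library each per time. Leaving out 1 strain at a time gave 4 to 8 calls from 0.5 to 4 h, 4 to 7 from 0.5 to 48 h and 1 to 6 from 4 to 48 h, the fewest without STA6-C2 or STA6-C4 in the first case and without STA6-C4 in the last.

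PFK1 at 0.5 h stood at 103 FPKM in sta6, 70.4, 58.9 and 76.4 FPKM in STA6-C2, STA6-C4 and STA6-C6, and 66.3 FPKM in CC-4349. PFK1 at 4 h stood at 140.1 FPKM in sta6, 127, 131 and 129.9 FPKM in STA6-C2, STA6-C4 and STA6-C6, and 88.6 FPKM in CC-4349. PFK1 at 48 h stood at 88.3 FPKM in sta6, 98.2, 98.0 and 94.2 FPKM in STA6-C2, STA6-C4 and STA6-C6, and 89.5 FPKM in CC-4349. All 5 strains were higher at 4 h than at 0.5 h (0.72 ± 0.14, limma adjusted p = 0.00399), and 4 of 5 were lower at 48 h than at 4 h (-0.38 ± 0.14, limma adjusted p = 0.0395, but -0.22 with limma adjusted p = 0.152 after quantile normalization). PFK2 at 0.5 h stood at 163 FPKM in sta6, 87.1, 76.2 and 95.6 FPKM in STA6-C2, STA6-C4 and STA6-C6, and 75.4 FPKM in CC-4349. PFK2 at 4 h stood at 188 FPKM in sta6, 149.9, 162 and 156 FPKM in STA6-C2, STA6-C4 and STA6-C6, and 91.3 FPKM in CC-4349. PFK2 at 48 h stood at 106 FPKM in sta6, 109.9, 103 and 106 FPKM in STA6-C2, STA6-C4 and STA6-C6, and 113 FPKM in CC-4349. This phosphofructokinase was likewise higher at 4 h in 5 of 5 strains (0.61 ± 0.18, limma adjusted p = 0.0308), and without any 1 of the rescued strains the change missed the threshold, with limma adjusted p of 0.123 to 0.169.

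PGI1 at 0.5 h stood at 511 FPKM in sta6, 393, 412 and 385 FPKM in STA6-C2, STA6-C4 and STA6-C6, and 260.2 FPKM in CC-4349. PGI1 at 4 h stood at 216 FPKM in sta6, 205, 239 and 207 FPKM in STA6-C2, STA6-C4 and STA6-C6, and 184 FPKM in CC-4349. PGI1 at 48 h stood at 170.1 FPKM in sta6, 173, 166 and 179 FPKM in STA6-C2, STA6-C4 and STA6-C6, and 115 FPKM in CC-4349. The isomerase was lower at every later time in 5 of 5 strains, with log2 changes of -0.87 ± 0.12 (limma adjusted p = 0.000516) from 0.5 to 4 h and -1.27 ± 0.12 (limma adjusted p = 4.89e-06) from 0.5 to 48 h. Of the 10 genes it had the smallest adjusted p from 0.5 to 48 h.

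GAP1 at 0.5 h stood at 561 FPKM in sta6, 388, 327 and 411 FPKM in STA6-C2, STA6-C4 and STA6-C6, and 512 FPKM in CC-4349. GAP1 at 4 h stood at 1681 FPKM in sta6, 1603, 1495 and 1692 FPKM in STA6-C2, STA6-C4 and STA6-C6, and 633 FPKM in CC-4349. GAP1 at 48 h stood at 1633 FPKM in sta6, 1656, 1685 and 1694 FPKM in STA6-C2, STA6-C4 and STA6-C6, and 1598 FPKM in CC-4349. The 5 strains were close together at 48 h, whereas at 4 h CC-4349 lay far below the 4 strains of the sta6 lineage. All 5 strains were higher at 4 h (1.63 ± 0.24, limma adjusted p = 0.000789) and at 48 h (1.93 ± 0.24, limma adjusted p = 3.46e-05) than at 0.5 h.

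PGM2 at 0.5 h stood at 179 FPKM in sta6, 159, 152 and 167 FPKM in STA6-C2, STA6-C4 and STA6-C6, and 98.9 FPKM in CC-4349. PGM2 at 4 h stood at 285 FPKM in sta6, 239, 221 and 236 FPKM in STA6-C2, STA6-C4 and STA6-C6, and 133 FPKM in CC-4349. PGM2 at 48 h stood at 170.2 FPKM in sta6, 200.4, 196 and 197 FPKM in STA6-C2, STA6-C4 and STA6-C6, and 150.3 FPKM in CC-4349. Each strain was higher at 4 h than at 0.5 h (0.54 ± 0.12, limma adjusted p = 0.00851), and CC-4349 was the lowest strain at all 3 times. PGH1 at 0.5 h stood at 721 FPKM in sta6, 532, 520.4 and 491 FPKM in STA6-C2, STA6-C4 and STA6-C6, and 461 FPKM in CC-4349. PGH1 at 4 h stood at 1139 FPKM in sta6, 776, 719 and 671 FPKM in STA6-C2, STA6-C4 and STA6-C6, and 515 FPKM in CC-4349. PGH1 at 48 h stood at 552 FPKM in sta6, 569.7, 569 and 559 FPKM in STA6-C2, STA6-C4 and STA6-C6, and 372 FPKM in CC-4349. Enolase was higher at 4 h than at 0.5 h in 5 of 5 strains (0.46 ± 0.13, limma adjusted p = 0.0257) and lower at 48 h than at 4 h in 5 of 5 (-0.51 ± 0.13, limma adjusted p = 0.00623), although after quantile normalization the difference from 4 to 48 h turned to 0.25 (limma adjusted p = 0.138).

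PYK1 at 0.5 h stood at 77.2 FPKM in sta6, 114, 108 and 97.2 FPKM in STA6-C2, STA6-C4 and STA6-C6, and 80.2 FPKM in CC-4349. PYK1 at 4 h stood at 149 FPKM in sta6, 87.6, 93.2 and 79.4 FPKM in STA6-C2, STA6-C4 and STA6-C6, and 78.9 FPKM in CC-4349. PYK1 at 48 h stood at 121 FPKM in sta6, 169, 161 and 165 FPKM in STA6-C2, STA6-C4 and STA6-C6, and 85.9 FPKM in CC-4349. Pyruvate kinase was highest at 4 h in sta6 and at 48 h in the other 4 strains, and was higher at 48 h than at 0.5 h in 5 of 5 strains (0.53 ± 0.20, limma adjusted p = 0.0358). Without any 1 of the rescued strains that change missed the threshold, with limma adjusted p of 0.0877 to 0.110.

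GLD2 at 0.5 h stood at 71.2 FPKM in sta6, 50.0, 45.1 and 52.2 FPKM in STA6-C2, STA6-C4 and STA6-C6, and 32.4 FPKM in CC-4349. GLD2 at 4 h stood at 103 FPKM in sta6, 72.9, 73.0 and 63.6 FPKM in STA6-C2, STA6-C4 and STA6-C6, and 35.7 FPKM in CC-4349. GLD2 at 48 h stood at 80.4 FPKM in sta6, 87.2, 84.5 and 85.8 FPKM in STA6-C2, STA6-C4 and STA6-C6, and 64.2 FPKM in CC-4349. All 5 strains were above their 0.5 h value at 4 h (0.43 ± 0.15, limma adjusted p = 0.0559) and at 48 h (0.71 ± 0.15, limma adjusted p = 0.00151), of which the change to 4 h missed the threshold. GND1 at 0.5 h stood at 286 FPKM in sta6, 201, 168 and 205 FPKM in STA6-C2, STA6-C4 and STA6-C6, and 129.8 FPKM in CC-4349. GND1 at 4 h stood at 593 FPKM in sta6, 432, 456 and 433 FPKM in STA6-C2, STA6-C4 and STA6-C6, and 269 FPKM in CC-4349. GND1 at 48 h stood at 453 FPKM in sta6, 465, 479.9 and 467 FPKM in STA6-C2, STA6-C4 and STA6-C6, and 452 FPKM in CC-4349. This dehydrogenase was higher in 5 of 5 strains at 4 h (1.14 ± 0.15, limma adjusted p = 0.000539) and at 48 h (1.27 ± 0.15, limma adjusted p = 3.37e-05), and the strains lay within a narrow range at 48 h.

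TAL1 at 0.5 h stood at 98.3 FPKM in sta6, 337, 226 and 549 FPKM in STA6-C2, STA6-C4 and STA6-C6, and 667 FPKM in CC-4349. TAL1 at 4 h stood at 182 FPKM in sta6, 788, 805 and 879 FPKM in STA6-C2, STA6-C4 and STA6-C6, and 371 FPKM in CC-4349. TAL1 at 48 h stood at 591 FPKM in sta6, 339.7, 234 and 264 FPKM in STA6-C2, STA6-C4 and STA6-C6, and 67.5 FPKM in CC-4349. The strain classes moved in different directions, and no change over the 5 strains was called, with 0.75 ± 0.62 (limma adjusted p = 0.409) from 0.5 to 4 h and -1.09 ± 0.62 (limma adjusted p = 0.158) from 4 to 48 h.

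**Figure D3:**
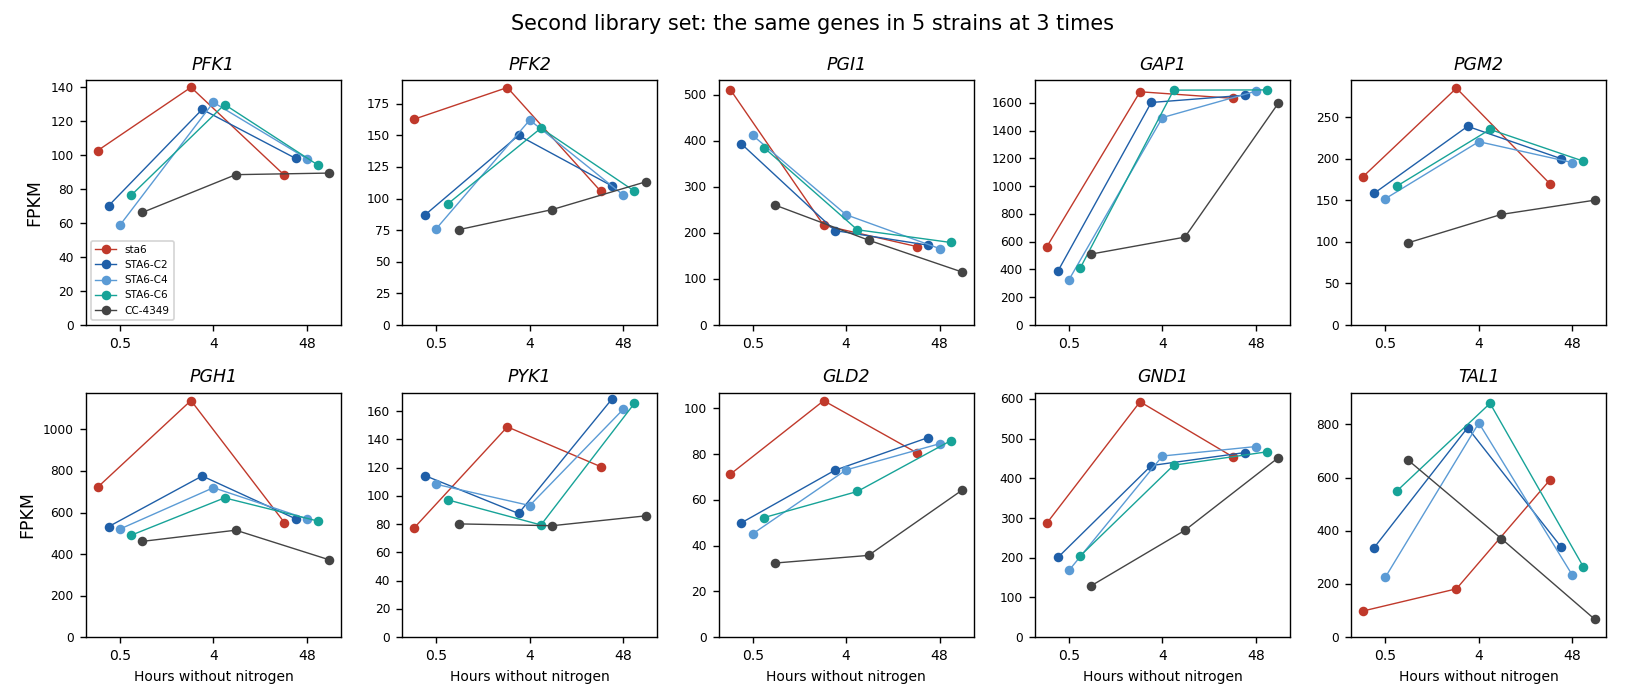
FPKM (vertical axis, from 0) of the 10 genes in the second library set at 0.5, 4 and 48 h, with 1 point per strain and time, for sta6 (red), the rescued STA6-C2 (dark blue), STA6-C4 (light blue) and STA6-C6 (green) and CC-4349 (grey). PGI1 falls in every strain, GND1 reaches 452 to 480 FPKM in all strains at 48 h, and TAL1 at 4 h is 182 FPKM in sta6 against 788 to 879 FPKM in the rescued strains.

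Strain classes were then compared over the 3 times of the second set to set the mutant beside strains that had regained STA6 and beside CC-4349. Over the 3 times together no member was called between sta6 and the rescued strains, where 0.354% of all genes were higher and 0.387% lower. At an unadjusted p under 0.05, 4 members were higher in sta6 and 0 lower. Without the 48 h libraries, 4 members were called. Against CC-4349, 6 members were higher in sta6, namely PFK2, PGI1, PGM2, PGH1, GLD2 and GND1, beside 11.1% of all genes up and 15.6% down. In the rescued strains 5 members were higher than in CC-4349, namely PGI1, PGM2, PGH1, GLD2 and GND1, with 16.1% and 16.3% of all genes. No member was lower in either comparison by limma, nor at an unadjusted p under 0.05 (0 genes). The comparisons share the CC-4349 libraries.

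GLD2 had the largest log2 difference of sta6 against CC-4349, at 0.98 ± 0.17 (limma adjusted p = 0.00108), and stood 0.65 ± 0.14 (limma adjusted p = 0.00371) in the rescued strains against CC-4349, higher in 9 of 9 pairs of the same time. PGM2 averaged 211 ± 64.1 FPKM in sta6, 196 ± 32.1 in the rescued strains and 127.5 ± 26.2 in CC-4349 (SD over times and strains, n = 3, 9 and 3). Its log2 differences from CC-4349 were 0.71 ± 0.14 (limma adjusted p = 0.00265) in sta6 and 0.62 ± 0.12 (limma adjusted p = 0.00120) in the rescued strains. PGH1 averaged 804 ± 302 FPKM in sta6, 600.8 ± 97.8 in the rescued strains and 449 ± 72 in CC-4349 (SD, n = 3, 9 and 3), with log2 differences from CC-4349 of 0.78 ± 0.15 (limma adjusted p = 0.00193) and 0.41 ± 0.12 (limma adjusted p = 0.0210). PGI1 differed by 0.59 ± 0.14 (limma adjusted p = 0.00652) and 0.47 ± 0.11 (limma adjusted p = 0.00582), and GND1 by 0.76 ± 0.18 (limma adjusted p = 0.00758) and 0.44 ± 0.15 (limma adjusted p = 0.0362). PFK2 passed in sta6 (0.68 ± 0.21, limma adjusted p = 0.0298) and not in the rescued strains (0.29 ± 0.17, limma adjusted p = 0.220), and the difference between the mutant and the rescued strains was itself not called (0.39 ± 0.17, limma adjusted p = 0.358). PFK1, GAP1, PYK1 and TAL1 were not called against CC-4349 in either class in the second set. CC-4349 was 1 library per time, and leaving out the 4 h libraries gave 1 call for sta6 and 3 for the rescued strains. In the first set, where a difference between the strains cannot be told apart from the differing scale per gene, PGH1 was higher in sta6 in 8 of 8 pairs (1.02 ± 0.12, limma adjusted p = 0.000127) and so were TAL1 (1.82 ± 0.38, limma adjusted p = 0.00386), GAP1 (0.62 ± 0.15, limma adjusted p = 0.00877) and PFK2 (0.32 ± 0.10, limma adjusted p = 0.0204). PGI1 (0.01 ± 0.19, limma adjusted p = 0.985), PGM2 (0.01 ± 0.12, limma adjusted p = 0.951) and GND1 (0.26 ± 0.15, limma adjusted p = 0.189), called in the second set, were not called there, and GLD2 gave -0.20 ± 0.21 (limma adjusted p = 0.473). In the second set TAL1 gave -0.22 ± 0.76 (limma adjusted p = 0.857).

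At single times sta6 was set against the 3 rescued strains, which share its background. At 0.5 h, 6 members were higher in second-set sta6 (PFK1, PFK2, GAP1, PGH1, GLD2 and GND1) and 2 were lower (PYK1 and TAL1), beside 8.01% and 8.24% of all genes. The first-set sta6 library at 0.5 h, the one that lay near its 0 h sample, was outside the rescued range on the same side for 3 of these 8, namely PGH1, PYK1 and TAL1, and below that range for the other 5, which were higher in second-set sta6. At 4 h, PGH1, PYK1 and GLD2 were higher and TAL1 was lower, beside 2.36% and 2.59% of all genes. At that time both sta6 libraries lay outside the rescued range on the same side for 8 of the 10 genes, the 4 called ones included. The share of all genes placed likewise was not computed at 0.5 or 4 h. These counts therefore have no background and are descriptions only. At 48 h no member was called, beside 0.607% higher and 0.988% lower of all genes, and at an unadjusted p under 0.05 limma gave 1 higher and 1 lower. Each sta6 value was a single library and its spread was taken from the rescued strains. Without any 1 rescued strain the number of calls at 4 h was 2, and at 0.5 h it was 2 without STA6-C2.

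At 4 h the lower glycolytic genes PGH1 and PYK1 and the oxidative gene GLD2 were higher in the mutant. PGH1 stood at 1205 and 1139 FPKM in first-set and second-set sta6, against 671 to 776 FPKM in the rescued strains (0.66 ± 0.11, limma adjusted p = 0.0100). PYK1 stood at 186 and 149 FPKM in sta6, against 79.4 to 93.2 FPKM in the rescued strains (0.78 ± 0.13, limma adjusted p = 0.00730). GLD2 stood at 115 and 103 FPKM in sta6, against 63.6 to 73.0 FPKM in the rescued strains (0.56 ± 0.13, limma adjusted p = 0.0299). In all 3 genes neither sta6 library overlapped the rescued strains. The 3 genes were picked by the second-set call, so the place of the second-set library adds nothing to it. The share of all genes with both libraries outside the range was not computed. GND1 was placed likewise, with 586 and 593 FPKM in sta6 and 432 to 456 FPKM in the rescued strains, but was not called (0.43 ± 0.13, limma adjusted p = 0.0839). The glycolytic genes GAP1 (0.08 ± 0.14, limma adjusted p = 0.826) and PGI1 (-0.00 ± 0.12, limma adjusted p = 1.00) were not called, and second-set sta6 lay within the rescued range, at 1681 and 216 FPKM, while first-set sta6 lay below it for GAP1 and above it for PGI1. At 48 h the largest differences without a call were TAL1 (1.10 ± 0.40, limma adjusted p = 0.190) and PYK1 (-0.45 ± 0.13, limma adjusted p = 0.106).

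**Figure D4:**
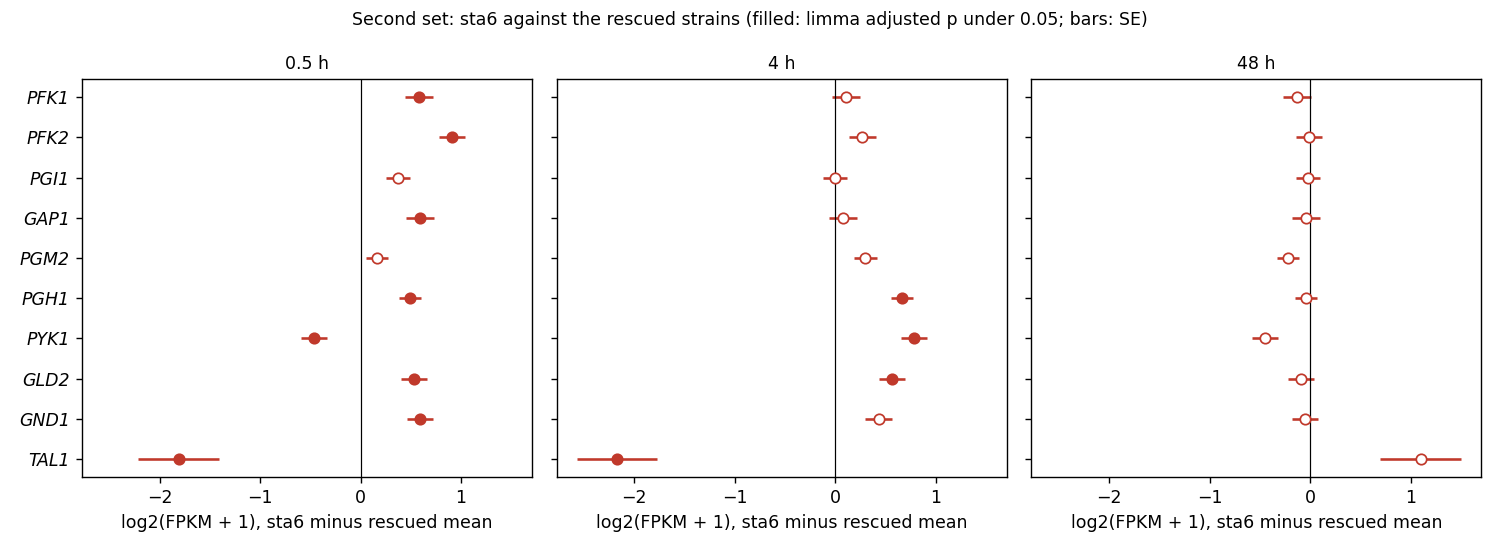
Difference in log2(FPKM + 1) between second-set sta6 and the mean of the 3 rescued strains (horizontal axis) for the 10 genes (rows) at 0.5, 4 and 48 h (panels), with bars for the standard error and filled points where the limma adjusted p is under 0.05. TAL1 lies at -1.81, -2.17 and 1.10 at the 3 times, and PYK1 at -0.46, 0.78 and -0.45.

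Within the second set, 5 members changed unequally from 0.5 to 48 h in sta6 and in its rescued strains. TAL1 was the 1 with a higher change in second-set sta6, and PFK1, PFK2, GLD2 and GND1 had a lower one, beside 3.63% and 7.28% of all genes. For TAL1 the difference of the changes was 2.90 ± 0.57 (limma adjusted p = 0.0227). For PFK2 it was -0.92 ± 0.18 (limma adjusted p = 0.0198), for PFK1 -0.72 ± 0.19 (limma adjusted p = 0.0417), for GND1 -0.64 ± 0.18 (limma adjusted p = 0.0450) and for GLD2 -0.62 ± 0.18 (limma adjusted p = 0.0483). Over all genes this difference had a median of -0.18. Quantile normalization brought it to -0.02, and there TAL1 kept its call, the other 4 genes lost theirs and GAP1 was called lower (-0.70 ± 0.18, limma adjusted p = 0.0475). The number of calls was 0 without STA6-C2, 2 without STA6-C4 and 1 without STA6-C6. First-set sta6, which did not enter this test, lay on the other side of the rescued strains for all 4 genes with a lower change. Its log2 change from 0.5 to 48 h was 1.45 for PFK1, 0.85 for PFK2, 2.53 for GLD2 and 2.94 for GND1, against -0.22, -0.62, 0.17 and 0.66 in second-set sta6 and at most 0.73, 0.43, 0.89 and 1.51 in the rescued strains. The direction for these 4 genes therefore rests on the second-set sta6 libraries, and the first-set sta6 library at 0.5 h is the one that lay near its 0 h sample. For TAL1 the change was 3.68 in first-set and 2.57 in second-set sta6, both above the rescued range of -1.05 to 0.05. The first-set change of TAL1 starts from that same 0.5 h library, in which TAL1 stood at 45.6 FPKM, against 477 FPKM at 0 h.

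Transaldolase had the largest log2 differences between the mutant and its rescued strains. At 0.5 h TAL1 stood at 45.6 and 98.3 FPKM in first-set and second-set sta6, against 226 to 549 FPKM in the rescued strains (-1.81 ± 0.40, limma adjusted p = 0.0201). The first-set value at 0.5 h comes from the library that over all genes lay near its 0 h sample, where TAL1 stood at 477 FPKM. That 0.5 h library was below the rescued range for every member but PGH1. At 4 h TAL1 stood at 157 and 182 FPKM in sta6, against 788 to 879 FPKM in the rescued strains (-2.17 ± 0.40, limma adjusted p = 0.0205, or 4.51-fold lower). At 48 h the order was turned round, with 595 and 591 FPKM in sta6 and 234 to 340 FPKM in the rescued strains, a difference that was not called. TAL1 was thus higher at 48 h than at 4 h in both sta6 series, and lower in all 3 rescued strains and in both CC-4349 series. Without STA6-C2 neither call passed, with a limma adjusted p of 0.132 at 4 h. In CC-4349 the sets did not resemble each other, with 31.2 FPKM in the first and 667 FPKM in the second at 0.5 h, and 49.3 and 371 FPKM at 4 h. The log2 difference of first minus second set for TAL1 in CC-4349 was -4.37, -2.89 and -0.64 at 0.5, 4 and 48 h (mean -2.63). It was thus not constant over time. In sta6 it was -1.09, -0.21 and 0.01 (mean -0.43). The part of the differing scale per gene in this was not tested.

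Pyruvate kinase was called on both sides of the rescued strains, first below and then above. PYK1 was lower in second-set sta6 at 0.5 h (-0.46 ± 0.13, limma adjusted p = 0.0349), higher at 4 h, and not called at 48 h. First-set sta6 lay on the same side of the rescued range as second-set sta6 at all 3 times, with 40.8, 186 and 141 FPKM against rescued ranges of 97.2 to 114, 79.4 to 93.2 and 161 to 169 FPKM. The first-set library at 0.5 h, which lay near its 0 h sample, was below the rescued range for every member but PGH1. Its side at that time is therefore not particular to PYK1. PYK1 was higher at 4 h than at 0.5 h in both sta6 series and lower in all 3 rescued strains. From 4 to 48 h the directions were the other way round.

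**Figure D5:**
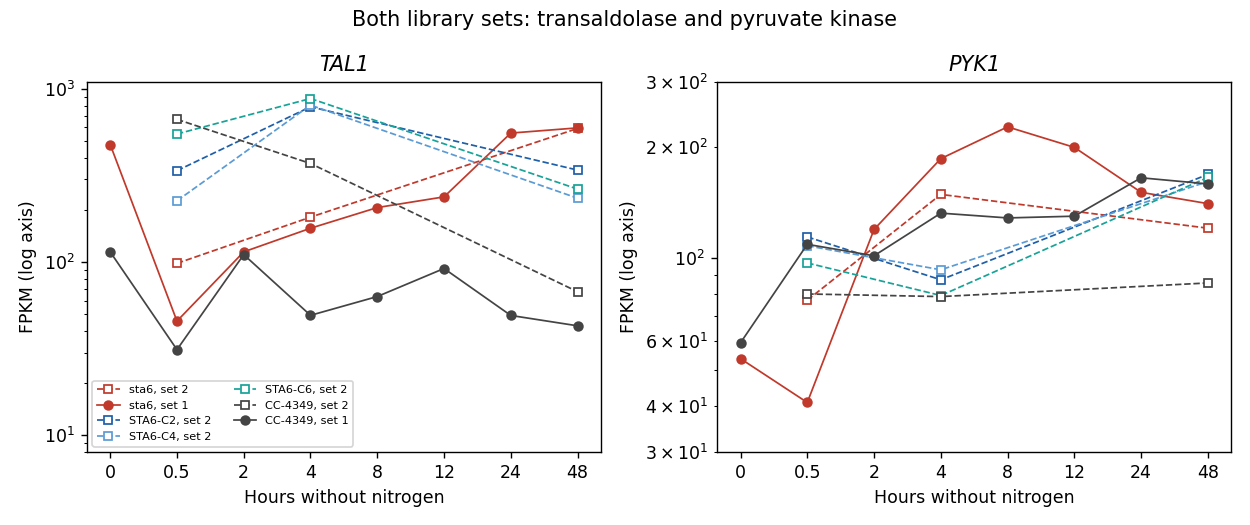
FPKM on a log axis against hours without nitrogen (evenly spaced ticks) for TAL1 (left) and PYK1 (right), with 1 point per library for sta6, STA6-C2, STA6-C4, STA6-C6 and CC-4349, filled circles and solid lines for the first library set and open squares and dashed lines for the second. Both sta6 series of TAL1 run below the rescued strains at 0.5 and 4 h and above them at 48 h, and both sta6 series of PYK1 are above the rescued strains at 4 h.

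In the first set the change from the early (0.5 to 4 h) to the late phase (8 to 48 h) was compared between the strains, a difference that a constant factor per gene between the strains does not enter. No member was called by limma, where 0.0463% of all genes were higher and 0.0199% lower. At an unadjusted p under 0.05, 1 member was higher and 0 lower. TAL1 had the largest difference (1.83 ± 0.75, limma adjusted p = 0.492), with 399 ± 205 FPKM late (SD, n = 4) and 106 ± 56.1 FPKM early (SD, n = 3) in sta6, against 61.8 ± 21.8 FPKM late and 63.7 ± 41.5 FPKM early in CC-4349. PYK1 gave 0.51 ± 0.55 (limma adjusted p = 0.783). Leaving TAL1 aside, the differences lay between -0.45 (GAP1) and 0.67 (GLD2).

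Further loci were counted beside the 10 genes. Of a list of 19 further loci of glycolysis, gluconeogenesis and the pentose phosphate pathway, 16 were in the table, which gives them identifiers without names. The list was written from general knowledge and includes aldolases, fructose-1,6-bisphosphatase, transketolase and ribose-5-phosphate isomerase (Cre03.g187450). Its loci were not sorted by compartment or by other pathways they may serve. The counts and medians are therefore those of a mixed list, not of the rest of glycolysis or the pentose phosphate pathway. Against 0 h in the first set, 4, 3 and 2 of the 16 were higher and 1, 3 and 5 lower at 2, 12 and 48 h, with Cre02.g117500 up (2.37 ± 0.61 at 2 h, limma adjusted p = 0.00874) and Cre03.g187450 down at all 3 times (-1.48 ± 0.26 at 48 h, limma adjusted p = 0.00165). Over all genes, 39.8%, 38.5% and 37.9% were higher at these times and 14.7%, 10.6% and 11.8% lower. In the second set, 10 were lower and 0 higher from 0.5 to 4 h (12 and 0 at an unadjusted p under 0.05), led by Cre03.g187450 (-2.47 ± 0.27, limma adjusted p = 0.000179). Of all genes, 9.73% were lower and 12.7% higher. From 0.5 to 48 h 2 were higher and 10 lower, with Cre01.g010900 at -2.39 ± 0.35 (limma adjusted p = 0.000113), and from 4 to 48 h 4 were higher and 3 lower. Shares of all genes were 29.3% higher and 32.2% lower from 0.5 to 48 h, and 23.8% and 28.0% from 4 to 48 h. The median log2 change of the 16 was -0.81 from 0.5 to 4 h, beside 0.57 for the 10 genes and 0.03 over all genes. Between sta6 and the rescued strains none of the 16 was called over the 3 times by limma (1 higher and 1 lower at an unadjusted p under 0.05), beside 0.354% higher and 0.387% lower of all genes. Against CC-4349, 4 were higher in sta6 and 3 in the rescued strains, and none lower. Over all genes, 11.1% were higher and 15.6% lower in sta6, and 16.1% and 16.3% in the rescued strains.

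Across the 31 samples, which share strains, times and library sets, the most similar members on the log2(FPKM + 1) scale were PFK1 and GND1 (Pearson r = 0.917), GLD2 and GND1 (0.913) and PGM2 and GLD2 (0.904). The 31 samples include first-set CC-4349, whose scale per gene differed. Within the second set these pairs gave 0.817, 0.877 and 0.832. The highest there were PFK1 with PFK2 (0.933) and GAP1 with GND1 (0.932). PGI1 ran opposite to GAP1 (r = -0.680), at -0.631 within the first set and -0.802 within the second. TAL1 correlated with no other member above 0.431, its value with PGH1. Among 15411 genes, the single gene most like each member was Cre07.g336950 for GND1 (r = 0.968), Cre12.g560850 for PFK1 (0.959), Cre12.g560800 for GLD2 (0.943) and Cre08.g364250 for PGM2 (0.941). For GAP1 it was Cre14.g624550 (0.935), for PGH1 Cre03.g154350 (0.923), for PFK2 Cre05.g232850 (0.921), for PYK1 Cre33.g782800 (0.897), for PGI1 Cre02.g092350 (0.893) and for TAL1 Cre02.g141400 (0.887). These correlations are descriptions over libraries that are not independent of one another, and the genes most like each member were not sought again without first-set CC-4349.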

How the data were processed

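Total RNA of Chlamydomonas reinhardtii cultures was sequenced on an Illumina instrument, per the labels. The deposited values were taken as FPKM, made by the authors before deposit. The unit stands in no header, and RPKM would look the same. Reads were aligned with Bowtie, per the submitters' processing notes. Its version, and the build, counter and strand setting, are unknown: not given in the sources used here. Reads shared with near-identical or overlapping genes therefore cannot be told apart. Depth per sample is unknown.

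Samples were grouped by strain and time from the labels and by the library code in the titles. The 16 first-set samples each had a pair of columns, which were averaged. Tests used log2(FPKM + 1), a pseudocount of 1 that understates the changes of low genes, and kept a gene where 3 or more of the libraries fitted reached 1 FPKM, with limma 3.58.1 in R 4.3.3 (trend and robust fitting), Benjamini-Hochberg adjustment over all genes tested and a threshold of 0.05. Errors beside fold changes are standard errors. First-set times were fitted by strain and time (7 residual degrees of freedom), second-set times likewise (8), strain classes with time (10), sta6 against rescued strains with 1 mean per class and time (6) and late against early phases by strain (10). Summaries used Python 3.11.15, pandas 2.3.3 and numpy 2.4.6. No source ties the samples of a strain to separate cultures, so p-values measure only the spread between these samples, which may be technical.

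The members and the list of further loci were chosen with earlier results of these data known. All 10 members were to be described, with values for every library; of the list at most 4 loci per comparison, and for each member the gene with the highest Pearson r over the 31 samples. All 10 members and all 19 listed loci matched a RefSeq locus tag. Alternatives were quantile normalization, equal medians, pseudocounts of 0.1 and 5, all genes without a filter, limma fitted plainly (no trend, not robust), single columns of a pair, other sample choices and leaving out libraries. Comparisons share control libraries where they share a strain and time.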

Additional observations from a re-analysis of the deposited data

Results flagged for a closer look

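For 5 genes the change from 0.5 to 48 h differed between second-set sta6 and its rescued strains by a test of the difference itself (limma, 1 sta6 library per time). On the log2 scale, the sta6 change minus the rescued change was 2.90 for TAL1, -0.92 for PFK2, -0.72 for PFK1, -0.64 for GND1 and -0.62 for GLD2. Leaving out 1 rescued strain gave 0 to 2 calls among the 10 genes in place of 5. First-set sta6 changed more than any rescued strain in all 5 genes, with log2 changes of 3.68 for TAL1, 0.85 for PFK2, 1.45 for PFK1, 2.94 for GND1 and 2.53 for GLD2, so that the direction for the 4 genes other than TAL1 turns with the sta6 series. All of these first-set changes, TAL1 included, start from the 0.5 h library that over all genes lay near its 0 h sample. TAL1 itself was not near it, at 45.6 FPKM in that library against 477 FPKM at 0 h.

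In another 5 cases both sta6 series moved one way and all 3 rescued strains the other way, a difference that was not tested. These cases were picked by that rule from all members over 0.5 to 4, 0.5 to 48 and 4 to 48 h. The share of all genes that met the rule was not computed. The mean log2 change of the sta6 series minus that of the rescued strains was 1.84 for PYK1 from 0.5 to 4 h, where the first-set series starts from the library near its 0 h sample. From 4 to 48 h it was -1.27 for PYK1, -0.67 for GLD2, -0.49 for GND1 and 3.38 for TAL1.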

How the results depend on the processing

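Single-gene values called in the main fits were recomputed under the alternatives, which gave 720 values. Of these, 599 kept their direction and, where tested, their side of the threshold. Untested values of a single strain counted as kept when they lay within the standard error of the fitted change. A further 113 kept the direction and lost the threshold, 6 untested values moved and 2 reversed. The reversed ones were PGH1 from 4 to 48 h (0.25 after quantile normalization) and GLD2 in sta6 against CC-4349 (-0.20 in the first set alone, 8 pairs). Calls gained under an alternative are not among the 720. Of 158 counts of members called, 127 stayed within 1.5 times of the reported one. Equal medians gave 3 in place of 6 from 0 to 48 h, and 2 in place of 5 for the change from 0.5 to 48 h in sta6 against rescued strains, as did quantile normalization and limma without trend and robust fitting. Quantile normalization gave 8 in place of 5 from 0.5 to 48 h in the second set, and 3 in place of 5 for rescued strains against CC-4349. The rescued strains alone gave 8 from 0.5 to 48 h and 8 in place of 4 from 4 to 48 h. With no replicate block (no term for time), sta6 and the rescued strains against CC-4349 gave 0 calls in place of 6 and 5, and 11 pairs of both sets with a replicate block gave 3 for sta6. The causes were not tested.

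Leaving out 1 strain or time gave 4 to 8 calls from 0.5 to 4 h, 4 to 7 from 0.5 to 48 h and 1 to 6 from 4 to 48 h. It gave 0 to 4 for sta6 against rescued strains, 1 to 8 for sta6 against CC-4349 and 3 to 6 for rescued strains against CC-4349. For sta6 against rescued strains it gave 2 to 7 at 0.5 h, 2 at 4 h, 0 at 48 h and 0 to 2 for the change from 0.5 to 48 h. Without the 0.5 h libraries, 7, 7 and 6 members were called at 2, 12 and 48 h against 0 h, and late against early gave 0. A sta6 or CC-4349 arm of 1 library per time is assumed to vary like the other strains.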
